A study of Mus musculus with 4 samples.

Results

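The comparison asked, gene by gene, whether the difference between CD300a-deficient and wild-type cells was the same in conventionally housed and germ-free mice. For each gene it took D, the genotype difference under specific pathogen-free (SPF) housing minus the genotype difference under germ-free (GF) housing, on a log2 scale. A gene was included when at least 1 of its probes was well above background on all 4 arrays, as 12899 of 20637 named genes were, and the brightest such probe stood for the gene. The 7738 genes left out include any that were silent in a group. A D of 1 means that the ratio of deficient to wild type was 2-fold higher under SPF than under GF housing, and a D of 2 that it was 4-fold higher.

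The cells were labelled as dendritic cells from the lamina propria of the colon, the connective tissue beneath the gut epithelium. They were isolated freshly by flow cytometry from C57BL/6J mice. Macrophage and monocyte markers were also above background on every array, and epithelial RNA was abundant on both GF arrays. The name dendritic cells therefore stands for the label alone. The 4 groups were wild type (WT) under SPF, CD300a deficient (KO) under SPF, WT under GF and KO under GF, with 5 mice per condition and 1 Cy3 array per group. The SPF mice were labelled female and the GF mice male. The sources used here give neither the marker panel of the sort nor the design of the deletion. CD300a is an inhibitory receptor of myeloid cells that binds phosphatidylserine exposed by dying cells. Dendritic cells sample antigen in the gut wall, and on maturation they express costimulatory molecules, secrete cytokines and use CCR7 to travel to the draining lymph node. The microbiota is a standing source of ligands for the pattern recognition receptors that drive this maturation, and germ-free mice lack it.

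Several labels could not be upheld by the arrays. Cd300a was not lower under the KO label. Its only probe read 7.88 on the WT SPF, 7.91 on the KO SPF, 7.60 on the WT GF and 8.05 on the KO GF array, as log2 levels relative to the array's 75th percentile, the scale of every level below. The sources used here do not say where this probe lies relative to the deletion. It therefore does not check the labels, and KO stands below for the label alone. Xist, which female cells transcribe from the inactive X chromosome, read 3.62 on the KO GF array, labelled male, but failed the background test on the WT GF array, labelled male as well. The Y-linked genes Ddx3y, Uty and Kdm5d passed that test on both GF arrays and neither SPF array, while Eif2s3y also passed on the KO SPF array, labelled female, at -2.56. The SPF pair shared slide 1 and scan 1, and the GF pair slide 2 and scan 2, so housing, slide, scan and labelled sex cannot be told apart. Each genotype difference lies within 1 slide. Within the GF pair, though, Xist passed the background test on the KO array only. Genotype and sex composition therefore cannot be told apart under GF, and the GF difference enters every D. D is given no test here, because with 1 array per group it has no replicate check. The error printed after ± combines the scanner software's own spot errors on the 4 arrays, which cover measurement within an array only. Its median over genes was 0.29. It falls with the number of spots of a probe, so a smaller error does not mean that D was replicated. In a sorted population, fewer cells of a type and less RNA per cell cannot be told apart.

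Over all 12899 genes the median KO minus WT difference was -0.05 under SPF and -0.26 under GF housing, and the median D was 0.18 with an SD of 0.80 across genes. D was above 0 for 7766 genes (60.2% of those measured). It was at least 1 for 1504 genes (11.7%) and -1 or less for 934 (7.24%), at least 2 for 194 (1.5%) and -2 or less for 90 (0.698%). The balance between these directions depended on the scaling of the arrays. With the scaling of the deposited series table, 93 genes had a D of at least 2 and 225 a D of -2 or less, and the median D was -0.186. With each genotype difference centred on its median, 151 genes had a D of -2 or less. Both also moved the crossing counts given further on, from 70 and 16 to 34 and 49 and to 43 and 34. Within each housing, 443 genes (3.43%) were at least 2-fold higher and 332 (2.57%) at least 2-fold lower in KO cells under SPF, against 516 (4.0%) and 811 (6.29%) under GF. The median D was higher in brighter genes, from -0.07 in the dimmest quartile of genes to 0.42 in the brightest, so list medians are also given after a loess curve on brightness was subtracted.

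**Figure D1:**
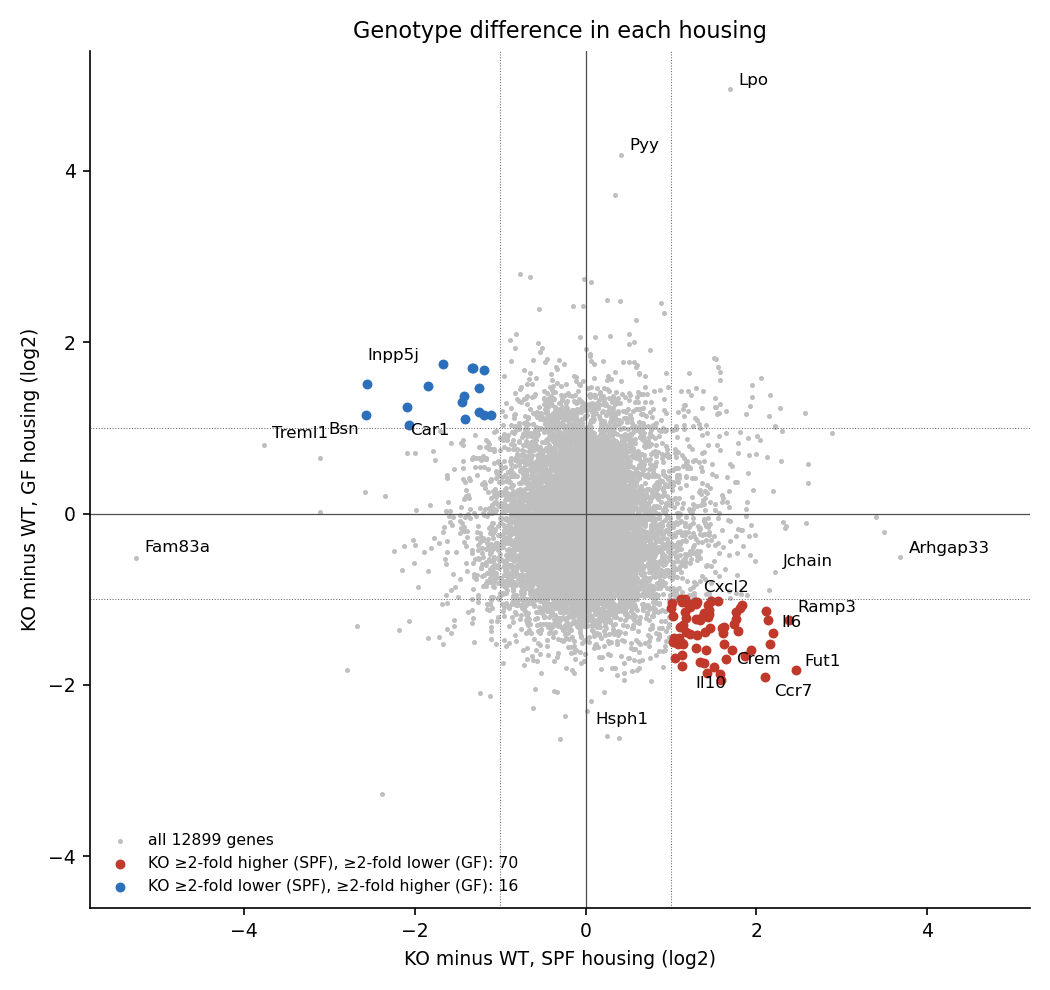
Each point is 1 of 12899 genes, with KO minus WT under SPF housing on the x axis and under GF housing on the y axis (both log2); dotted lines mark 2-fold. The 70 red genes lie at the lower right, higher in KO cells under SPF and lower under GF, and the 16 blue genes at the upper left, with the reverse pattern.

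A full change of direction, at least 2-fold one way under SPF and at least 2-fold the other way under GF, was met by 70 genes (0.543%) that were higher in KO cells under SPF and lower under GF, and by 16 genes (0.124%) with the reverse pattern. By sign alone, 3766 genes (29.2%) were above WT under SPF and below it under GF, 2282 (17.7%) the reverse, and 4765 (36.9%) below WT in both housings. Of the 70 genes, 16 (22.9%) belonged to at least 1 of the 37 gene lists used here, against 705 (5.47%) of all measured genes, and the other 54 to none. The lists were chosen with earlier results of these data known, so this share supports nothing. All 70 kept opposite signs in both housings under each of 6 other scalings or centrings, and so did all 16 reverse genes. Both sets were chosen for 2-fold differences, so the kept signs were largely fixed by that choice. Of the 70, between 31 (normexp) and 50 (quantile normalization) still crossed by 2-fold. Of the 16, between 2 (normexp) and all 16 did. Both sets differed in brightness. The 70 genes had a median level of 1.25, with 30 in the brightest quartile of all genes and 18 in the dimmest. The 16 reverse genes had a median level of -1.36, with 1 in the brightest quartile and 8 in the dimmest.

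Ccr7, the receptor that guides mature dendritic cells to lymph nodes, read 1.91 on the WT SPF, 4.01 on the KO SPF, 1.37 on the WT GF and -0.54 on the KO GF array. The KO SPF array was the highest and the KO GF array the lowest, a 4.30-fold higher level under SPF and a 3.76-fold lower level under GF, and D was 4.01 ± 0.29. Fut1, a fucosyltransferase, had the highest D of all genes at 4.29 ± 0.40, with levels of -3.14, -0.68, -1.60 and -3.42 in the same array order, which makes it a dim gene on every array. Il1r2, the decoy receptor for interleukin 1, read 3.86, 5.79, 4.0 and 2.40, so both WT arrays were nearly level and the KO arrays lay on either side of them. Its D was 3.53 ± 0.29. Ptgs2, the inducible cyclooxygenase of prostaglandin synthesis, read 4.22, 5.94, 2.99 and 1.40, with a D of 3.31 ± 0.09. Crem, a transcription factor of cyclic AMP signalling, read 3.56, 5.2, 3.14 and 1.44. Pde4b, a phosphodiesterase that breaks down cyclic AMP, read 2.69, 4.08, 3.35 and 2.19, with a D of 2.55. Ramp3, a partner protein of calcitonin-family receptors, read 2.86, 5.24, 1.94 and 0.69, and Mcemp1, a membrane protein of myeloid and mast cells, 2.46, 4.03, 4.11 and 2.24. For these genes the KO SPF value lay above both WT values, except that Mcemp1 on the WT GF array was slightly higher still, and the KO GF value lay below both.

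Not every gene with a high D differed in direction. Of the 194 genes with a D of at least 2, 70 were 2-fold different in both housings, 59 under SPF only and 65 under GF only, and 4 had the same sign in both. Arhgap33, a GTPase-activating protein, was different under SPF only, with levels of -3.21, 0.48, -2.76 and -3.26 and a D of 4.19 ± 0.40. Slc26a6, an anion exchanger, read -2.54, 0.96, -2.48 and -2.70. In both genes a single array, KO SPF, stood apart from the other 3. Of the 90 genes with a D of -2 or less, 16 were 2-fold different in both housings, 26 under SPF only and 48 under GF only.

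**Figure D2:**
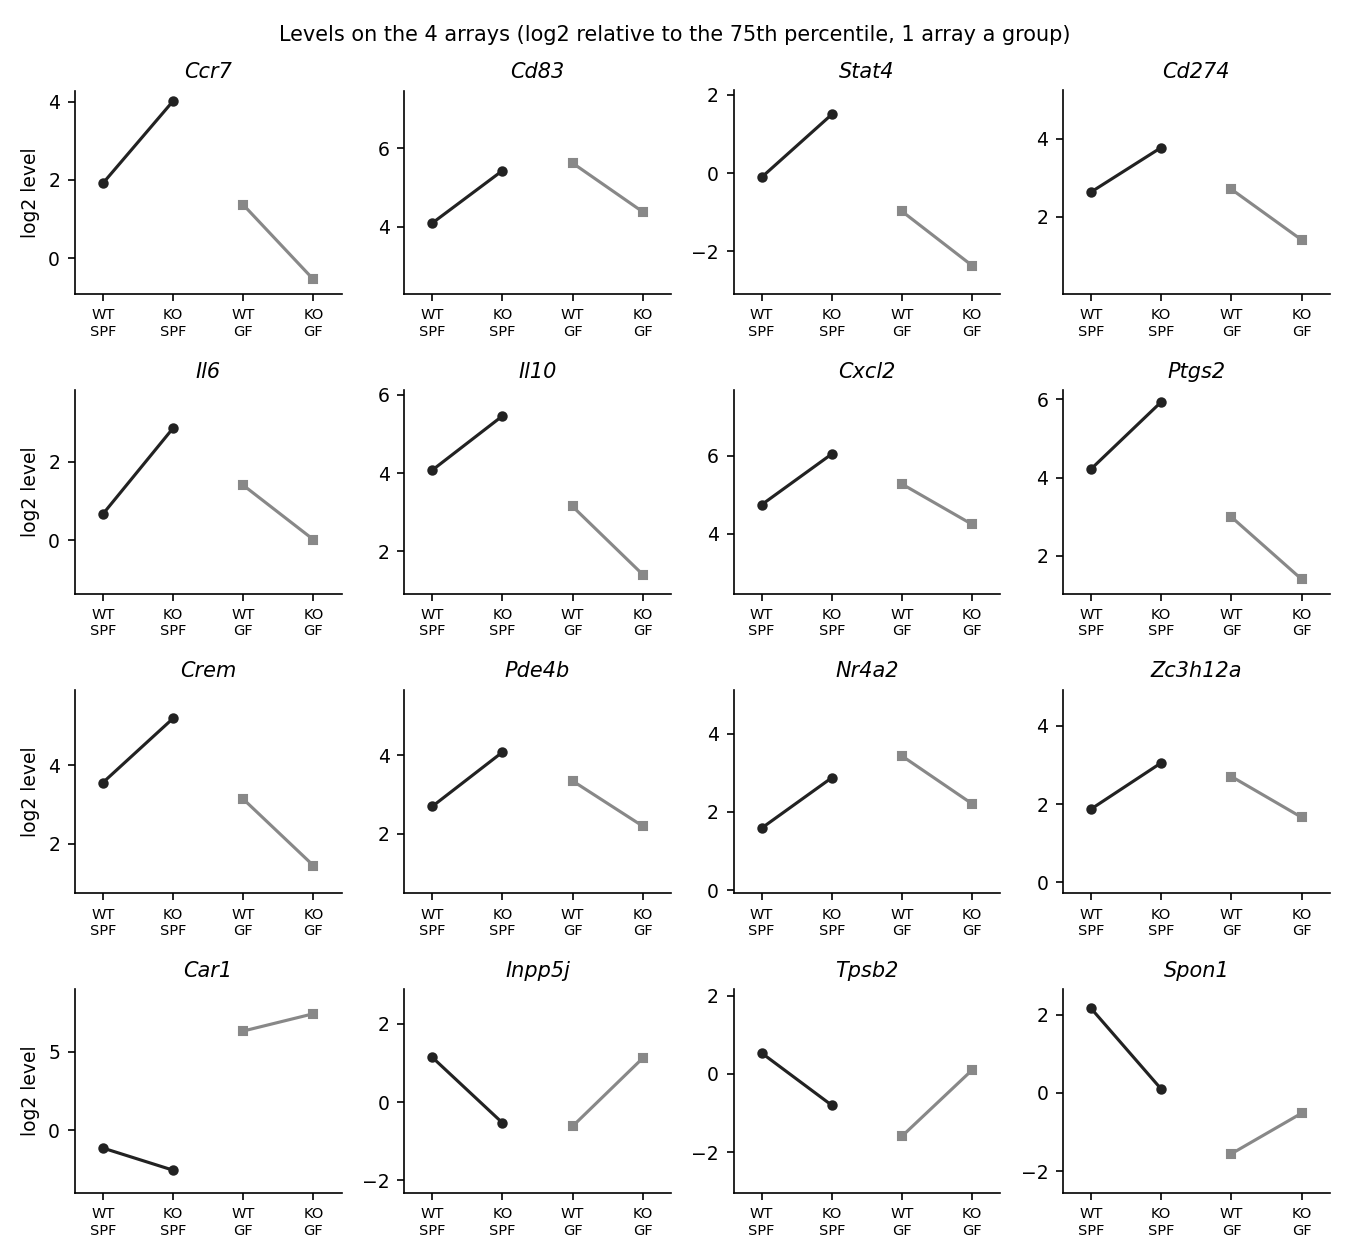
Levels of 16 genes on the 4 arrays (y axis, log2 relative to the array's 75th percentile; lines join WT and KO within a housing; every panel spans the same log2 range except Car1, whose axis is wider). In the upper 3 lines of panels, led by Ccr7, the SPF line goes up and the GF line down; in Car1, Inpp5j, Tpsb2 and Spon1 it is the reverse.

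The list of dendritic cell maturation and migration genes lay on opposite sides of 0 in the 2 housings. Its 23 measured members had a median KO minus WT difference of 0.69 under SPF and -0.83 under GF, against -0.05 and -0.26 over all genes. The median D was 1.44, or 1.11 after the brightness curve was subtracted. A D of at least 1 was seen in 16 of the 23, against 11.7% of all genes, and a D of -1 or less in 1. By sign, 16 lay above WT under SPF and below it under GF, against 29.2% of all genes. A 2-fold crossing in both housings was met by 5, against 0.543% of all genes: Ccr7, Stat4, Ccl22, Cd83 and Cd274. Cd83, a surface marker of mature dendritic cells, read 4.09, 5.43, 5.63 and 4.38, so that the KO SPF and WT GF arrays were high and the other pair low. Stat4, a transcription factor that relays interleukin-12 signals, read -0.11, 1.5, -0.98 and -2.37. Ccl22, a chemokine of mature dendritic cells that attracts T cells, read -0.88, 0.16, -0.62 and -2.31. Cd274, which encodes the inhibitory ligand PD-L1, read 2.64, 3.77, 2.71 and 1.41. The 3 members with the lowest D were Cacnb3 at -1.24, the costimulatory ligand Cd80 at -0.63 and the chemokine Ccl5 at -0.27. Cd80 had a second probe whose D was 2.21, of opposite sign. Over the alternative processings the median D of the list stayed between 1.08 and 1.48.

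The NF-kappaB list holds subunits of the transcription factor, inhibitors that it induces against itself and other pathway members such as the kinase subunit Chuk. Its 19 measured members had medians of 0.69 under SPF and -0.55 under GF and a median D of 1.51, or 1.11 after the brightness curve. The 0.69 and the 1.11 are the same values as for the maturation list. They are set by membership that the lists share, so they are not separate evidence. D was at least 1 in 10 members and -1 or less in 0, against 11.7% and 7.24% of all genes. By sign, 16 of the 19 lay above WT under SPF and below it under GF, against 29.2% of all genes. That count was 13 to 16 over the scalings. Negative regulators of the pathway were found at both ends of the list, with Cyld at the low one. Nfkbia, which encodes the inhibitor IkappaB-alpha, read 4.0, 4.94, 4.87 and 3.49, with a D of 2.32 ± 0.29. Zc3h12a, an RNase that degrades inflammatory transcripts, read 1.87, 3.05, 2.70 and 1.66 and crossed by 2-fold in both housings. Tnip3 read 2.76, 4.59, 2.43 and 2.23, a difference carried by the SPF pair. At the other end Chuk, the kinase subunit IKK-alpha, had a D of -0.20, Nfkbiz, an atypical IkappaB protein, 0.16 and Cyld, a deubiquitinase that restrains the pathway, 0.40.

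Cytokines and chemokines were mixed. Of 33 listed genes 25 were measured, with medians of 0.04 under SPF and -0.89 under GF and a median D of 1.01, or 0.52 after the brightness curve. D was at least 1 in 13 and -1 or less in 2, against 11.7% and 7.24% of all genes. A 2-fold crossing from higher to lower was met by 4, against 0.543% of all genes. Il6, a proinflammatory cytokine, read 0.66, 2.86, 1.40 and 0.01, with a D of 3.59 ± 0.20. Il10, the main anti-inflammatory cytokine of intestinal phagocytes, read 4.07, 5.46, 3.15 and 1.41, with a D of 3.13 ± 0.09. Il6 and Il10 thus had the same pattern, high on the KO SPF array and low on the KO GF array. Il1a read 0.64, 2.08, 1.37 and 0.30, and the neutrophil chemokine Cxcl2 4.74, 6.04, 5.27 and 4.24. At the low end of the list were 3 chemokines, Ccl12, Cxcl9 and Ccl8. Ccl12, which attracts monocytes, read 3.44, 1.44, 3.42 and 2.83, lower in KO cells in both housings and more so under SPF, which gave a D of -1.42. Cxcl9 had a D of -1.20 and Ccl8, 2-fold or more lower in both housings, a D of -0.97.

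The 250 bases before the transcription start are shown for Il6 and Cxcl2, because both crossed by 2-fold and both hold a match to the NF-kappaB motif searched, which is GGGA and TTCC separated by any 2 bases. Sequences are from RefSeq on GRCm38.p6, each on the plus strand, at chr5:30012864-30013113 for Il6 and chr5:90903649-90903898 for Cxcl2. Capitals mark matches. In Il6 they are, in order, AP-1 (TGANTCA), the core of the cyclic AMP response element (TGACGT, here on the other strand) and NF-kappaB, at -249, -136 and -44 from the start. In Cxcl2 the capitals are 2 overlapping NF-kappaB matches at -97 and -96, the one at -96 on the other strand.
Il6: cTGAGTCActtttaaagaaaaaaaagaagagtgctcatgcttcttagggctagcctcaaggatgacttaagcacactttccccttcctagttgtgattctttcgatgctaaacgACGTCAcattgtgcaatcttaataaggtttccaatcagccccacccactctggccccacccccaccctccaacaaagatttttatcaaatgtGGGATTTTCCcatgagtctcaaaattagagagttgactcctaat
Cxcl2: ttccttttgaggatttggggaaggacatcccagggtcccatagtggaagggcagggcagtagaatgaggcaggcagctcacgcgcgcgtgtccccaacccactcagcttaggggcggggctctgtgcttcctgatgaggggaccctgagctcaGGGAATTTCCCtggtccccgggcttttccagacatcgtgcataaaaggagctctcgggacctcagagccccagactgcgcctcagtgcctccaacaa
Both strands were searched from 250 bases before to 50 after the start, and 51 of the 70 genes that crossed from higher to lower had such a promoter entry. NF-kappaB matches were in 3 of these 51 (5.88%), against 1.52% of all measured genes and 1.43% of all promoters in the table. AP-1 matches were in 9 of 51 (17.6%), against 5.48% and 7.93%. The cyclic AMP element core was in 6 of 51 (11.8%), against 11.4% and 7.64%, and the interferon-stimulated response element (GAAA repeated after any 2 bases) in 2 of 51 (3.92%), against 3.29% and 3.49%. Among the 9 promoters of the reverse-crossing genes, AP-1 was in 2 (22.2%) and the other motifs in 0. With only 9 promoters, whether an AP-1 match sets the 51 apart from these cannot be decided. A match says only that these letters are present.

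The unfolded protein and integrated stress response list, which holds chaperones, folding enzymes and transcription factors induced when proteins misfold in the endoplasmic reticulum, was opposite in direction in nearly every member. Its 25 measured members had medians of 0.54 under SPF and -0.80 under GF and a median D of 1.38, or 0.94 after the brightness curve. D was above 0 in all 25 and at least 1 in 17, against 60.2% and 11.7% of all genes. By sign, 22 lay above WT under SPF and below it under GF (18 to 22 over the scalings), against 29.2% of all genes. None crossed by 2-fold in both housings. Herpud1, a component of endoplasmic reticulum-associated degradation, read 4.46, 5.39, 4.58 and 3.32, with a D of 2.19. Manf, a secreted factor induced by such stress, read 4.21, 5.05, 5.6 and 4.44, and Ddit3, the transcription factor CHOP, 1.41, 2.03, 1.84 and 0.56. The lowest D in the list were 0.52 for Dnajc3, 0.56 for Ddit4 and 0.64 for Atf6. The differences were moderate and shared among members, unlike those of the cytokines.

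Heat-shock proteins and co-chaperones, which help proteins fold, reached a similar D by another route. Their 23 measured members had medians of 0.08 under SPF and -1.16 under GF and a median D of 1.31, or 0.92 after the brightness curve. D was above 0 in all 23 and at least 1 in 16, against 60.2% and 11.7% of all genes. No member was 2-fold different under SPF. Under GF, 14 were at least 2-fold lower in KO cells, against 6.29% of all genes. Hspb1, a small heat-shock protein, read 5.32, 5.71, 3.03 and 0.41, with a D of 3.0. Dnaja4, a co-chaperone, read -0.48, 0.13, -0.92 and -2.74. Hsph1, of the Hsp110 family, read 8.14, 8.15, 6.49 and 4.19, and its second probe had a D of 2.75 beside 2.32. The SPF pair was level for Hsph1 and the whole D came from the GF pair. By sign, 15 of the 23 lay above WT under SPF and below it under GF, against 29.2% of all genes. That count ran from 9 to 17 over the scalings because the SPF differences were near 0. The list is therefore not described as differing in direction. The upstream sequence of Hspe1, a mitochondrial co-chaperonin chosen after its values were seen, is shown for its pair of overlapping heat-shock elements. The element is GAA, TTC and GAA, each separated by any 2 bases. Its matches, in capitals, are at -89 (on the other strand) and -84. The sequence is from RefSeq on GRCm38.p6, chr1:55087898-55088147, plus strand.
Hspe1: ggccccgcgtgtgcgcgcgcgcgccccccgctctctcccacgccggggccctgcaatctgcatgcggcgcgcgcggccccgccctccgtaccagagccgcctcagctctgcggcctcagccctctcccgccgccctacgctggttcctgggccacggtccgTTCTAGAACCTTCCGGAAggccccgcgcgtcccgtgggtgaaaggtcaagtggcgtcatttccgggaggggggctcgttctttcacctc
The D of its 3 probes were 1.46, 1.53 and 1.44. The element was found in 4 of the 18 list members with a promoter entry (22.2%), against 0.388% of all measured genes and 0.529% of all promoters. The list was made of heat-shock genes by choice, so this share describes the list and says nothing about D.

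Antigen presentation genes had lower medians under GF than under SPF. For major histocompatibility complex (MHC) class II the 15 members had medians of 0.03 and -0.99 and a median D of 0.92, or 0.45 after the brightness curve. H2-Ob, a subunit of the modulator H2-O, read 1.90, 2.66, 1.76 and 0.07, with a D of 2.44, and its partner H2-Oa 1.21, 1.49, 2.09 and 0.44, with a D of 1.93. H2-DMb2, of the peptide exchange factor H2-DM, had a D of 1.89. The transactivator Ciita, by contrast, had a D of 0.01, with levels of 2.33, 2.14, 2.63 and 2.42. For MHC class I the 22 members had medians of -0.24 and -0.91 and a median D of 0.71, or 0.32 after the brightness curve. Of these, 16 were lower in KO cells in both housings, against 36.9% of all genes. The chaperone Calr had the highest D at 1.44 and H2-Q4, which was higher in KO cells under GF, the lowest at -1.07.

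Cytosolic ribosomal protein genes had values of D that lay close together. D was at least 1 in 14 of them and -1 or less in 0, against 11.7% and 7.24% of all genes. All 44 listed genes were measured, and 43 had a D above 0, against 60.2% of all genes. By sign, 41 were higher in KO cells under SPF and lower under GF, against 29.2% of all genes. That count was 27 under the least favourable scaling. The medians were 0.18 and -0.72 and the median D 0.89, or 0.49 after the brightness curve. Rps19 had the highest D at 1.47, and Rps3 the only negative one at -0.26. Oxidative phosphorylation subunits, as numerous and bright as well, gave a median D of 0.03, or -0.40 after the brightness curve. D was past 1 in either direction in 0 of the 44 members. By sign, 6 lay below WT under SPF and above it under GF, against 17.7% of all genes. That count ran from 6 to 32 over the scalings, against 2200 to 4096 of all 12899 genes. The GF median of these subunits ran from -0.14 to 0.31, so the lean of this list depended on the scaling. Cell cycle and replication genes had medians of 0.15 and -0.83 and a median D of 0.89 over 32 members, or 0.72 after the brightness curve. Their D was 1 or more in 15 and -1 or less in 0, against 11.7% and 7.24% of all genes. Cenpa, the centromeric histone, read 1.36, 2.41, 1.41 and -0.09 and crossed by 2-fold in both housings, while the proliferation marker Mki67, at 3.03, 4.5, 3.11 and 2.80, differed mainly under SPF. Cholesterol synthesis genes had medians of 0.44 and -0.40 over 22 members and a median D of 0.65, or 0.27 after the brightness curve, led by Insig1, a sterol-regulated inhibitor of the pathway, at 1.74.

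The aryl hydrocarbon receptor list was small, with 6 of 10 genes measured, medians of 0.71 and -0.56 and a median D of 0.91, or 0.66 after the brightness curve, which ranged from 0.31 to 1.06 over all alternatives. Ahr, the receptor itself, read 2.12, 3.21, 1.74 and 1.1, and its second probe had a D of 1.28 beside 1.73. Its target Tiparp read 4.38, 5.27, 3.78 and 2.53. Immediate early genes had a median D of 0.75 over 25 members, or 0.33 after the brightness curve, and Nr4a2, an inducible nuclear receptor that read 1.58, 2.87, 3.43 and 2.20, was their only member to cross by 2-fold. The Toll-like receptor list had a median D of 0.45 over 31 members, which after the brightness curve was 0.08, near the 0.00 of all genes. Its crossing member was Cd14, the lipopolysaccharide co-receptor, at 4.69, 5.87, 5.29 and 4.08. Genes with which dendritic cells promote regulatory T cells had a median D of 0.64 over 19 members, or 0.33 after the brightness curve, from 3.13 for Il10 down to -2.22 for Aldh1a1. Interferon-stimulated genes leaned the same way in both housings. Their 42 measured members had medians of -0.40 and -0.58 and a median D of 0.14, or -0.06 after the brightness curve. In both housings 28 of them were lower in KO cells, against 36.9% of all genes. Cxcl10, at 3.10, 3.84, 1.97 and 0.43, had a D of 2.29, and Cmpk2 the lowest at -1.41, with a second probe at 0.05.

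**Figure D3:**
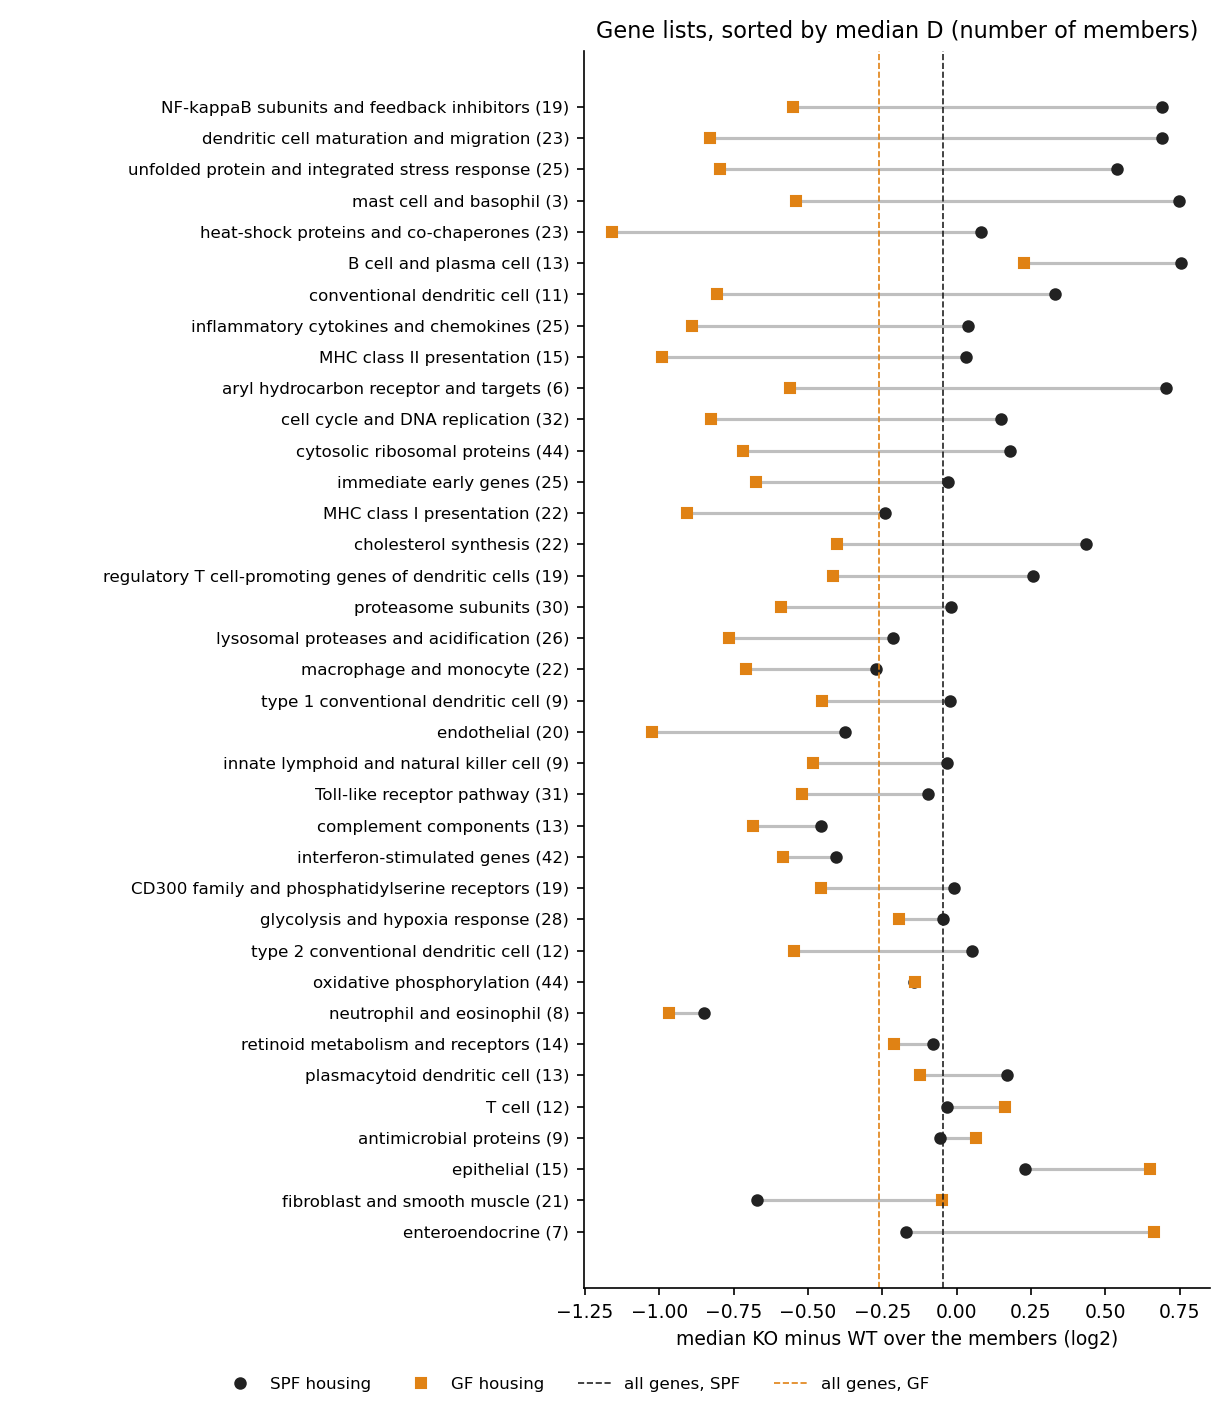
Median KO minus WT difference (x axis, log2) of the measured members of each of 37 gene lists under SPF (circles) and GF housing (squares), sorted by median D, with dashed lines at the medians of all genes. The NF-kappaB and maturation lists, both at 0.69 under SPF, are at the top, and the epithelial, fibroblast and enteroendocrine lists are at the bottom with the order of the symbols reversed. The shared 0.69 comes from membership common to both lists.

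**Figure D4:**
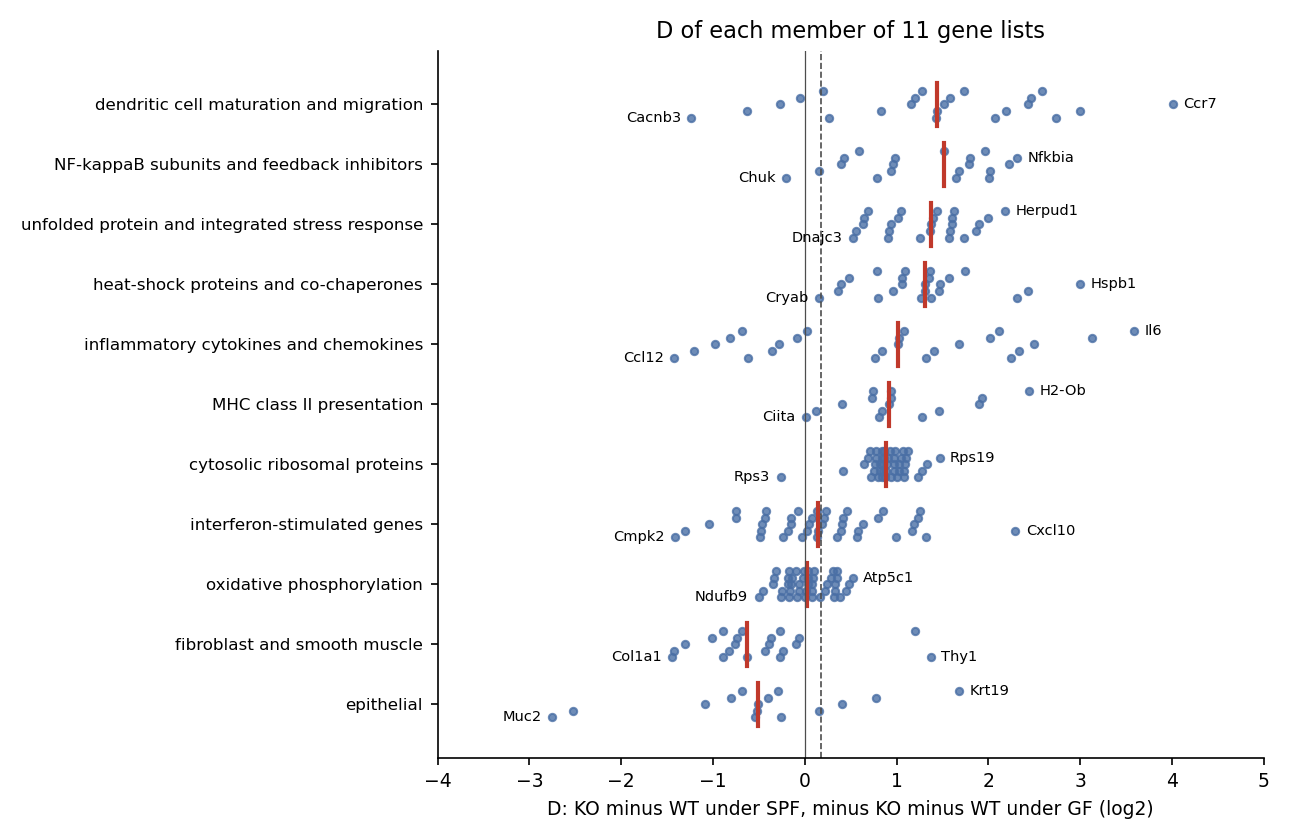
D of every measured member (x axis, log2) of 11 of the lists, with the median as a bar, the lowest and highest members named, and a dashed line at the median of all genes, 0.18. All stress response genes and all ribosomal protein genes but Rps3 lie above the dashed line, and cytokines spread from -1.42 to 3.59. Oxidative phosphorylation genes surround 0 under the main scaling, which is the one drawn.

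The negative end of D held mostly dim genes. Of the 90 genes with a D of -2 or less, 52 were in the dimmest quartile and 1 in the brightest, and their median level was -1.59, against 0.71 for the 194 genes with a D of at least 2. Fam83a had the lowest D at -4.75 ± 0.43, with levels of 2.68, -2.59, -2.63 and -3.15, and Treml1, a receptor known from platelets, read 1.53, -2.24, -1.64 and -0.84. In both the WT SPF array stood high above the other 3. Pyy, a hormone of enteroendocrine L cells, read -1.91, -1.49, -2.79 and 1.40, and Lpo, which encodes lactoperoxidase, -1.88, -0.19, -1.55 and 3.4. In these the KO GF array alone was high. Among the 16 genes that crossed by 2-fold in this direction were Inpp5j, an inositol polyphosphate phosphatase, at 1.15, -0.53, -0.61 and 1.13, the matrix protein Spon1 at 2.16, 0.10, -1.56 and -0.52, and the mast cell tryptase Tpsb2 at 0.54, -0.80, -1.59 and 0.10. Inpp5j gave nearly equal levels on the WT SPF and KO GF arrays and nearly equal lower levels on the other pair.

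The lists with a negative median D were mostly markers of cells other than dendritic cells. Fibroblast and smooth muscle genes, all 21 measured, had medians of -0.67 under SPF and -0.05 under GF and a median D of -0.63, or -0.74 after the brightness curve. Their D was below 0 in 19, against 5133 of all 12899 genes. Col1a1, a collagen chain, read -0.50, -1.08, -0.10 and 0.76, with a D of -1.44, and Thy1 had the highest D of the list at 1.37. The summed level of the list was 7.51, 7.29, 7.44 and 6.88 in the usual array order. Epithelial genes had a median D of -0.51 over the 15 measured of 27, or -0.88 after the brightness curve. Muc2, the mucin of goblet cells, read -0.44, -1.26, 1.53 and 3.46, and Car1, the carbonic anhydrase of colonocytes, -1.14, -2.55, 6.34 and 7.44. Their D were -2.76 and -2.52, yet Krt19 was at 1.68. The summed epithelial level was 4.01 and 4.42 on the SPF arrays and 9.54 on the WT GF array and higher still on the KO GF array, and 17, 20, 27 and 27 of the 27 genes were above background. Epithelial RNA was thus far more abundant on both GF arrays, and its part in any D was not tested. Enteroendocrine genes had a median D of -0.65 over the 7 measured of 20, or -0.54 after the brightness curve, with Cpe at -2.39 and a second probe at -2.03.

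Markers of other cells were also found at the positive end. B and plasma cell genes, 13 measured of 20, had medians of 0.76 and 0.23 and a median D of 1.28, or 1.2 after the brightness curve. Their D was 1 or more in 7 and -1 or less in 0, against 11.7% and 7.24% of all genes. Jchain, the joining chain of secreted antibodies, read 3.99, 6.2, -0.99 and -1.68, and the plasma cell receptor Tnfrsf17 -0.99, 0.77, 0.71 and -0.51. The summed level of the list was 5.67, 7.10, 5.06 and 5.29, highest on the KO SPF array, while Cr2 and Pax5 had a D of -0.60 and -0.53. Il7r, listed with innate lymphoid cells, crossed at 2.11, 4.22, 1.46 and 0.33. Endothelial genes had medians of -0.37 and -1.02 and a median D of 0.46 over 20 members, or 0.36 after the brightness curve, and Cldn5, a tight junction protein of vessels, crossed at -2.67, -1.33, 0.76 and -0.97. Of the dendritic cell markers themselves, all 11 of the conventional dendritic cell list were above background on every array, with a median D of 1.16, or 1.05 after the brightness curve, and summed levels of 5.54, 5.91, 5.19 and 4.30. All 22 macrophage and monocyte markers on the arrays were also above background everywhere, with a median D of 0.52, or 0.13 after the brightness curve. Their summed levels were 10.81, 10.61, 10.69 and 9.96. On every array this sum was above that of the conventional dendritic cell list, though the lists hold different genes. The share of each cell type was not tested. How far these cell populations entered the D of the maturation, cytokine or stress genes was not tested.

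Several probes of a gene gave an internal check. Of the 12899 genes, 3185 had at least 2 qualifying probes, and in 2193 of these (68.9%) D had the same sign in every probe. That share depended on the processing, from 60.5% with no background filter to 79.9% for bright genes only. The brightest and next brightest probes had the same sign in 71.9% and correlated across genes with a Pearson r of 0.55, as a description, since genes are not replicates and the probes share the same 4 RNA samples. Agreement was higher for bright genes, 75.6% of the brightest quartile against 57.2% of the dimmest, and for probes of a single accession (70.1%) than for those of different accessions (60.9%). For comparison, the next brightest probe of all 3185 genes had a D above 0 in 65.6%, below 0 in 34.4%, at least 1 in 13.0% and -1 or less in 5.37%, so that a positive sign is the more often met in any case. Where the brightest probe had a D of at least 1, all probes shared its sign in 89.5% of 343 genes and the next probe itself reached 1 in 56.9%. Where it was -1 or less, these shares were 72.5% of 131 genes and 23.7%. The shares of both directions therefore have different starting points, and whether reliability differs between them was not tested. At the larger threshold, all probes shared the sign in 34 of 36 genes with a D of at least 2, but in 5 of 10 genes with a D of -2 or less. All probes agreed in sign in each of the 10 genes that crossed from higher to lower and had several probes, and the next probe had a D of at least 1 in 9 of them.

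Individual genes show both outcomes. Hilpda, a hypoxia-induced lipid droplet protein, had a D of 3.28 and 3.5 in its 2 probes, and Crem of 3.34 and 3.05. Tnfaip2, induced by tumour necrosis factor, gave 2.75 and 3.11. Flrt3, an adhesion protein, gave 2.48, 2.92 and 2.73 in 3 probes that differ widely in brightness, and each of them placed the difference in the SPF pair. Hsph1 gave 2.32 and 2.75, both from the GF pair. Agreement on the negative side was found in Cndp2, a dipeptidase, at -2.0 and -2.47, in Cpe, and in Lama2, a laminin chain, at -1.5 and -2.22. Other extreme values rested on 1 probe. Slc26a6 had a D of 3.71 in its brightest probe and of 0.28 and -1.18 in the other 2. D2hgdh, a dehydrogenase, had -3.77 and 0.63, and the matrix protein Fbln7, counted among the 16 reverse genes, -3.34 and 0.22. In Smarca5-ps the brighter probes gave 0.70 and 0.62 and the dimmest -4.94. Where the probes of a gene lie relative to its exons is not analysed here, and why they disagree was not tested.

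**Figure D5:**
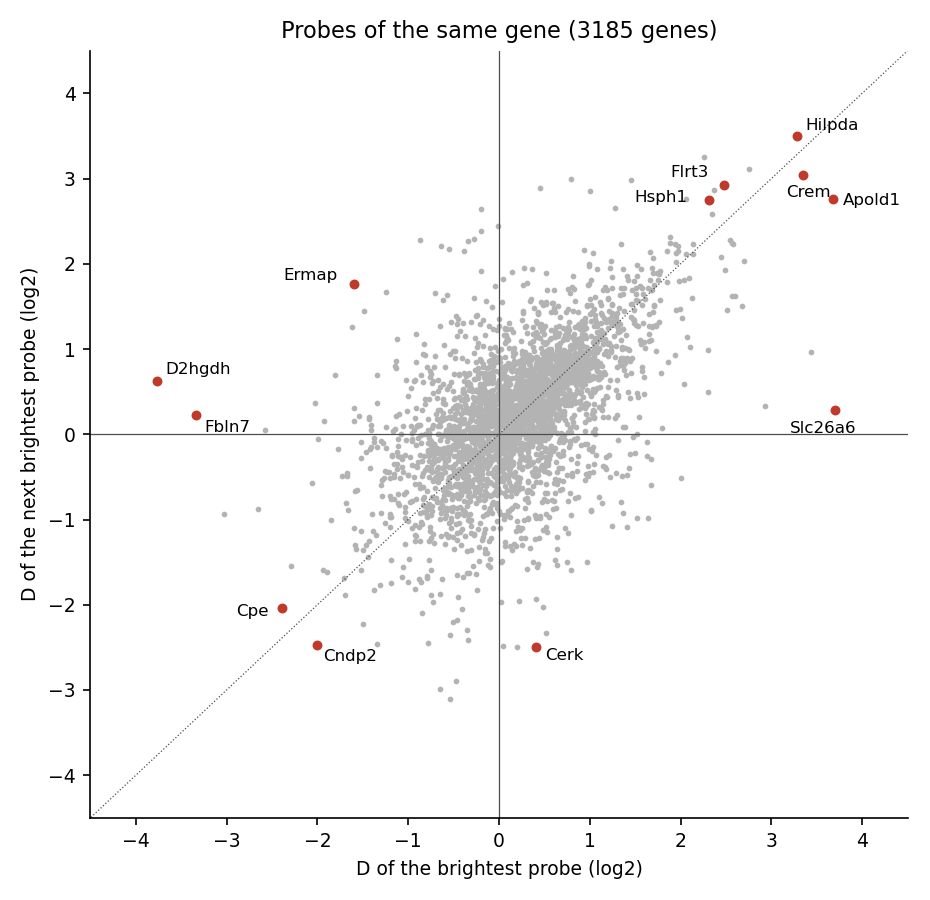
D of the brightest probe (x axis) and of the next brightest probe (y axis) of the 3185 genes with several qualifying probes (both log2). The dotted line marks equality, and some genes are named. Hilpda, Crem, Apold1, Flrt3 and Hsph1 lie near the line at the upper right, whereas D2hgdh, Fbln7 and Slc26a6 lie far from it, near a second-probe D of 0.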

How the data were processed

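Gene expression was measured on 1-colour Agilent mouse arrays, 1 per group. Per the labels' protocols, RNA was amplified as cDNA and labelled with Cy3. Per the file headers, Feature Extraction 10.10.1.1 (Agilent Feature Extraction in the submitters' processing notes) read the arrays, whose design build is mm9. The deposited scanner files hold a processed, background-subtracted signal intensity per spot, not scaled between arrays, and its error. Each column of the deposited series table of intensity values was the processed signal times a constant (8.30, 8.24, 7.08 and 7.96 for WT SPF, KO SPF, WT GF and KO GF), with column medians of 237.2, 216.3, 235.7 and 331.4. The sources used here do not give the rule for these constants, genes were not centred, and the scale is linear.

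Levels are log2 processed signal minus the array's 75th percentile over non-control probes. Outlier-flagged spots were left out and spots of a probe averaged, and 84 probes flagged throughout on an array were dropped. Probes were named by matching the accessions of the files to RefSeq genes of GRCm38.p6, for 27223 of 55681 probes. A further 19 whose accessions named different genes were left unnamed. A probe qualified if at least 50% of its spots were well above background on each array. D was computed on these values and no test was made. The step was tested on simulated data. Quantile and cyclic loess normalization and normexp (offset 50) were run in limma 3.58.1 (R 4.3.3), and the rest in Python 3.11.15.

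The gene lists and the genes reported were chosen with earlier results of these data known. Named genes were the 15 highest and lowest D, the 10 genes of each crossing direction with the largest smaller difference, the 3 highest and lowest members of each list and its crossing members, the 10 genes in each direction with the most extreme least probe, the 10 with the widest probe range, and Cd300a and sex-linked genes. Of 823 listed symbols 705 were measured, and 30 are in more than 1 list. Their number, 1 array per group, limits the precision.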

Additional observations from a re-analysis of the deposited data

Results flagged for a closer look

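The values below are given because the genotype difference had opposite directions in the housings, or because a signal lay outside the comparison. The median D was 1.44 for dendritic cell maturation and migration, 1.51 for NF-kappaB subunits and feedback inhibitors and 1.38 for the unfolded protein and integrated stress response, with a median KO minus WT difference of at least 0.5 in opposite directions in the housings under the main scaling. The same held for the aryl hydrocarbon receptor list at 0.91, with 6 genes measured, and the mast cell and basophil list at 1.32, with 3: Gata2 at 2.19, Kit at 1.32 and Tpsb2 at -3.03. That both medians lie at least 0.5 from 0 depended on the scaling. It held under 5 of the 6 other scalings or centrings for maturation, 2 for the stress response, 1 for the aryl hydrocarbon receptor list and 0 for the NF-kappaB and mast cell lists. Over those 6 the GF median was -0.81 to -0.50 for maturation, -0.69 to -0.44 for the stress response, -0.56 to -0.27 for the aryl hydrocarbon receptor, -0.49 to -0.26 for NF-kappaB and -0.44 to -0.25 for mast cells. Likewise 70 genes were at least 2-fold higher in KO cells under SPF and 2-fold lower under GF, and 16 the reverse. With 1 array per group, the difference was not tested for any of these.

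Xist read 3.62 on the KO GF array, labelled male, but failed the background test on the WT GF array, so it is not among the genes with a D. A second Xist probe gave the same pattern, at 2.22, 2.51 and -0.02 on the WT SPF, KO SPF and KO GF arrays. Ddx3y was above background on the same KO GF array at 0.59 and on the WT GF array at 2.07. The KO GF array thus held both X-inactivation and Y-linked transcripts.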

How the results depend on the processing

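Under 11 alternatives the sign of D was kept by all of the 70 and 16 crossing genes that were measured. These genes were chosen for a large D, so the kept sign was largely fixed by that choice. The counts depended on scaling and filtering. In the order D of at least 2, -2 or less, at least 1, -1 or less, crossing from higher to lower and crossing the reverse way, the counts were 93, 225, 704, 1883, 34 and 49 in the deposited table with its own scaling, 69, 11, 784, 298, 32 and 2 with normexp on median signals, 757, 891, 3012, 2899, 195 and 254 with no background filter (20637 genes), and 112, 13, 912, 238, 42 and 4 for the 7094 genes at or above the 75th percentile. With each difference minus its median, 151 genes had a D of -2 or less, 970 a D of at least 1, and 43 and 34 crossed. The median D of all genes turned to -0.186 in the deposited table and to -0.031 with each difference minus its median. The share of genes with 1 sign in all probes was 64.9% with quantile normalization, 64.3% with cyclic loess, 64.2% after the loess curve on brightness, 60.5% with no filter and 79.9% for bright genes. With the median of the probes in place of the brightest, D turned to 0.21 for D430042O09Rik and 0.081 for Ermap. Of 2878 values of 270 named genes, these 2 reversed, 718 moved by more than the spot error and 2158 did not. Of 406 list medians, 106 moved by more than that error, and 0 of those at least 0.5 from 0 changed sign. The cause was not tested. Normexp on mean signals was not run, since that column is not used here. No paired analysis was possible because each group has 1 array. Spots of the same probe gave an SD of D of 0.17 (median of 286 probes), which is error within an array only.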

Other observations

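Further gene groups gave these values. CD300 family and phosphatidylserine receptor genes had a median D of 0.08 over 19 members, or -0.18 after subtraction of the brightness curve, from 2.85 for Cd300ld, which read 0.96, 1.22, 0.52 and -2.07 on the WT SPF, KO SPF, WT GF and KO GF arrays, to -1.16 for Cd300e. Havcr2, which encodes TIM-3, read 1.55, 2.53, 1.37 and 0.16, with a D of 2.18, and Timd4, the phosphatidylserine receptor TIM-4, had a D of 2.23. Complement genes had a median D of 0.23 over 13 members, which turned to -0.23 after the brightness curve, and 9 of them were lower in KO cells in both housings, against 36.9% of all genes. C4b, at 1.0, -0.99, 1.87 and 1.91, had the lowest D of the list at -2.03, and C1qa, at 6.45, 6.25, 6.18 and 5.23, one of 0.75.

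Among the subsets, type 2 conventional dendritic cell genes had a median D of 0.07 over 12 members, which turned to -0.33 after the brightness curve, with Cd209a at 2.37 (second probe 2.86) and Clec4a4 at 2.30 against Ltb at -0.40. Type 1 conventional dendritic cell genes had 0.49 over 9 members, or 0.17 after the curve, led by Cadm1 at 0.93. Plasmacytoid dendritic cell genes had -0.05 over 13 members, or -0.37 after the curve, and T cell genes -0.14 over 12, or -0.11. Of the 8 neutrophil and eosinophil genes measured of 19, 6 were lower and 2 higher in KO cells in both housings. Of all 12899 genes, 4765 were lower and 2086 higher in both. The 8 had medians of -0.85 and -0.97 and a median D of 0.00, or -0.10 after the curve. The list's summed level was slightly higher on the KO arrays, 8.44 and 8.47 under SPF and 7.75 and 8.08 under GF. Most of that sum was Csf3r, at 8.29, 8.41, 7.59 and 8.02, so it does not describe the list as a group. Proteasome subunits had a median D of 0.57 over 30 members, or 0.16 after the curve, and lysosomal genes 0.53 over 26, or 0.11. Glycolysis and hypoxia genes had 0.07 over 28, which turned to -0.21, and retinoid genes -0.01 over 14, with the same value after the curve. Innate lymphoid and natural killer cell genes had 0.46 over 9, or 0.44, and antimicrobial proteins -0.28 over 9, or -0.35. Vegfa, at 4.83, 6.27, 2.75 and 2.53, differed between genotypes mainly under SPF.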
